A study of Homo sapiens with 6 samples.

Results

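The 8 transcription factor genes described here are GATA6, HNF4A, FOXA2, PDX1, KLF5, ELF3, SOX9 and TP63, which are used to tell classical from squamous (basal-like) identity in pancreatic cancer. They were chosen by name, as the rows of the deposited count table whose Ensembl identifiers map to these symbols. All 8 were found among the 20263 genes of the table, and 7 of them, all but FOXA2, were among the 13769 genes with enough counts to be tested. The cells were AsPC-1, a human pancreatic adenocarcinoma line, and all groups carry its genotype and received an siRNA with the jetPRIME reagent. The control group (siControl) received a negative control siRNA, and the groups HMOX1si1 and HMOX1si2 each received a different siRNA against HMOX1, the gene of heme oxygenase-1. Each of the 3 groups held 2 libraries of messenger RNA, and the study asks how HMOX1 acts on proliferation in pancreatic ductal adenocarcinoma. The labels give neither the time after transfection nor the siRNA dose, nor do they tie replicates to separate cultures. The p-values thus cover the spread among these libraries alone, which may be technical.

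Pancreatic progenitors and well-differentiated pancreatic tumours use a shared set of DNA-binding proteins. GATA6, HNF4A, FOXA2 and PDX1 act in the endoderm and in the developing pancreas, and in tumours they hold the classical, gland-forming programme. KLF5 and ELF3 drive genes of simple epithelia, SOX9 maintains ductal and progenitor cells, and TP63 encodes p63, the master factor of squamous epithelium, which defines the squamous end of the range.

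The regulatory sequence at the start of TP63 and at both starts of HNF4A is shown because these genes have alternative promoters, while a count per gene adds up all transcripts. The windows run from 250 bases before to 50 bases after a RefSeq start (build GRCh38.p14), all on the plus strand. Capitals mark the words GATAA (recognised by GATA factors), GTTAAT (a part of the HNF1 site) and GGAAG (the core of many ETS sites) on either strand and so include their reverse complements.
TP63, the start of the long (TA) transcripts, chr3:189631139-189631438: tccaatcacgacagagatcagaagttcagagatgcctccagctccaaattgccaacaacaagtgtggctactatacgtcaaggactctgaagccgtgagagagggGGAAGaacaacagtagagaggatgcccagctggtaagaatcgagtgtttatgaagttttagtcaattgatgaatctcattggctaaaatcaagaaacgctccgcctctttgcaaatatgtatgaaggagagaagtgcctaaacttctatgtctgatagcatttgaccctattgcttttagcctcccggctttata
HNF4A, upstream (P2) start, chr20:44355449-44355748: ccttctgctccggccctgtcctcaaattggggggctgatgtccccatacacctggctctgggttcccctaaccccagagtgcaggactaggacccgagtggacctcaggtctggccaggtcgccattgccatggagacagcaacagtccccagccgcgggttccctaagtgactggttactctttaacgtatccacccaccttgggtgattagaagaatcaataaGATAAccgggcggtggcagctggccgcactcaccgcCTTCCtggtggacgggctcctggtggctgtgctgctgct
HNF4A, downstream (P1) start, chr20:44400989-44401288: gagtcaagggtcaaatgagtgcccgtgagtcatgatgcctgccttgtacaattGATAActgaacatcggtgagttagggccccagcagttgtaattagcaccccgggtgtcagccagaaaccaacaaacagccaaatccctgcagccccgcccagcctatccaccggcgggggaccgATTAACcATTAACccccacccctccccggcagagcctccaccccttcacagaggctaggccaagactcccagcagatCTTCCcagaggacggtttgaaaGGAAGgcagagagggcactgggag
The TP63 window held 1 ETS word and neither of the other words. Both HNF4A windows held 1 GATA word, and the downstream window also held 2 HNF1 words. Of 34943 promoter windows of the same length, 22.8% held the GATA word, 6.9% the HNF1 word and 71.8% the ETS word. These matches describe letters only. In all, 5 of the 8 genes (ELF3, GATA6, HNF4A, KLF5 and TP63) were matched to 7 RefSeq windows, of which 2 held the GATA word, 3 the ETS word and 1 the HNF1 word.

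The libraries held 36.1 to 45.1 M counts, and levels below are in CPM, counts scaled to library size by the TMM method. HMOX1 had 9.06 and 8.52 CPM in the siControl libraries, 2.43 and 2.80 with HMOX1si1, and 1.27 and 1.17 with HMOX1si2, so all 4 knockdown libraries lay below both controls. All 11 epithelial markers were above 1 CPM in every library, and so were 6 of 14 ductal markers, among them KRT19, EPCAM and MUC1. The ductal markers PROM1 and SLC4A4 were at 0 counts in all libraries. Without siControl replicate 2, the edgeR quasi-likelihood test (p adjusted by Benjamini-Hochberg) called 0 genes of the whole table in either comparison with siControl (2806 and 2409 genes had p under 0.05 before adjustment), so each edgeR call against siControl below is lost without that library. Between the siRNAs 155 genes were still called without it.

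Under the control siRNA the 8 genes spanned a wide range of levels. Per kilobase of exonic length, the siControl means were 68.3 CPM for ELF3, 50.5 for KLF5, 17.4 for GATA6, 17.3 for SOX9, 6.65 for PDX1, 5.57 for HNF4A, 0.135 for TP63 and 0.0212 for FOXA2. GATA6 (18.0 and 16.8 CPM per kilobase) and SOX9 (17.7 and 16.8) overlapped between the 2 control libraries, whereas the libraries of the other neighbours in this order did not, except that FOXA2 was at 0 in 1 control library. The order was the same with the length of the principal transcript, by which ELF3 stood at 98.3 and HNF4A at 6.31 CPM per kilobase. AsPC-1 thus had ELF3 and KLF5 among its more abundant transcripts, at percentiles 98.3 and 94.0 of CPM among the genes above 0 in the controls, while TP63 stood at percentile 21.5.

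Members of the same gene families filled some of the gaps in that range. FOXA2 was close to absent, and its relatives FOXA1 and FOXA3 stood at 3.06 and 1.75 CPM per kilobase in siControl. GATA2 stood at 8.98, GATA4 at 2.89 and GATA3 at 0.510, all under GATA6. The other HNF4 gene, HNF4G, stood at 3.83, with its siControl libraries far apart at 5.49 and 2.17. TP63 stood under its relative TP73 (0.505). CDX2, the intestinal homeobox factor placed beside PDX1 here, stood at 19.3, above PDX1, and the ETS factors EHF (54.5) and ELF4 (47.5) came next to ELF3.

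**Figure D1:**
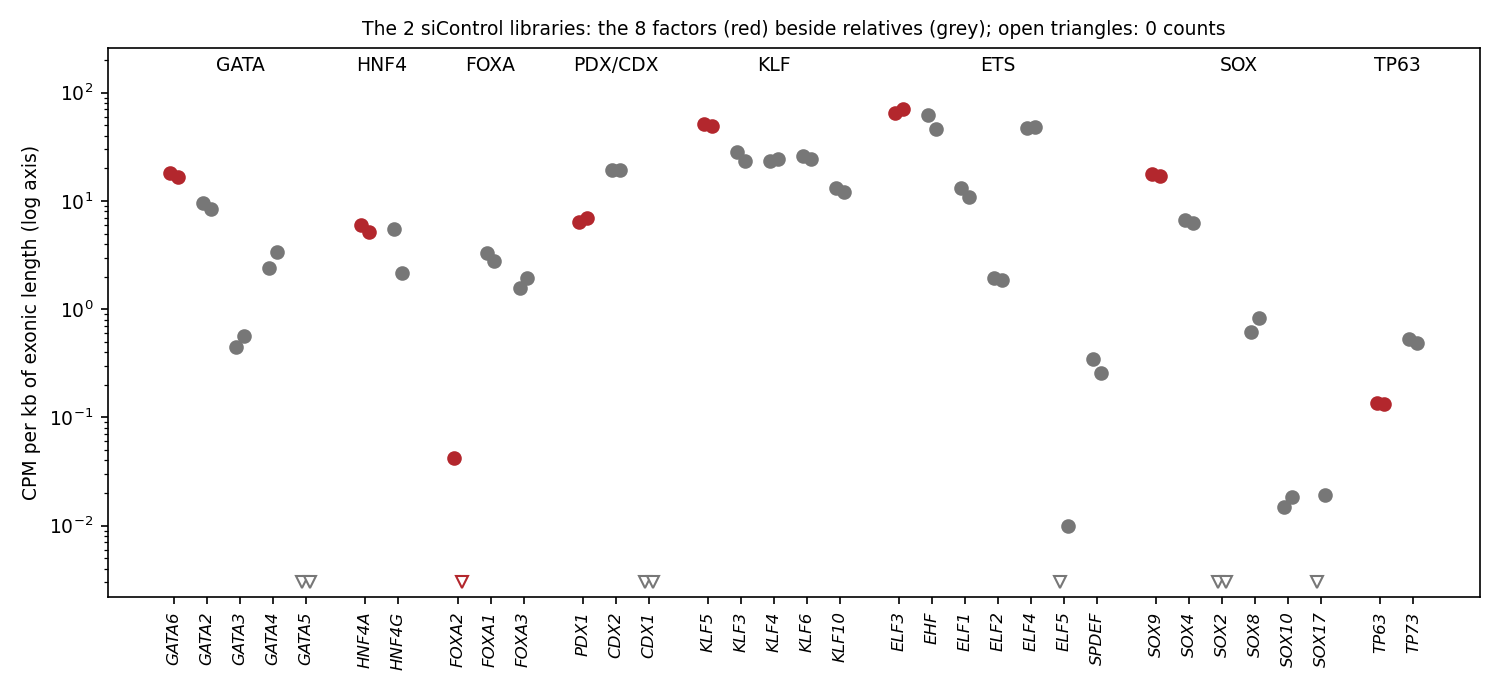
Levels of the 8 factors (red) and 25 relatives (grey) in both siControl libraries, in CPM per kilobase of exonic length on a log axis, with open triangles for libraries at 0 counts. ELF3 at 68.3 and KLF5 at 50.5 were the highest of the 8, and TP63 at 0.135 lay under TP73 at 0.505.

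Among the 7 tested factors, TP63 rose with both siRNAs and PDX1 fell with HMOX1si1, and the other 5 did not pass the test in any of the comparisons. With HMOX1si1, 1 of 7 factors was called higher, against 5.02% of all tested genes, and 1 was called lower, against 5.01%. With HMOX1si2, 1 of 7 was called higher, against 3.06% of all tested genes, and 0 lower, against 2.67%. For the average of both siRNAs 1 was higher (background 5.16%) and 1 lower (background 4.93%). The median log2 fold change of the 7 factors was 0.45 with HMOX1si1 and 0.33 with HMOX1si2, where the median of all tested genes was 0.00 in both. Each median was the value of 1 factor that was not called, HNF4A with HMOX1si1 and KLF5 with HMOX1si2. HNF4A came to −0.18 without HMOX1si1 replicate 2, and KLF5 to 0.04 without HMOX1si2 replicate 1. The 2 comparisons share their control libraries. In bulk RNA, fewer cells with a transcript and less of it per cell cannot be told apart.

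**Figure D2:**
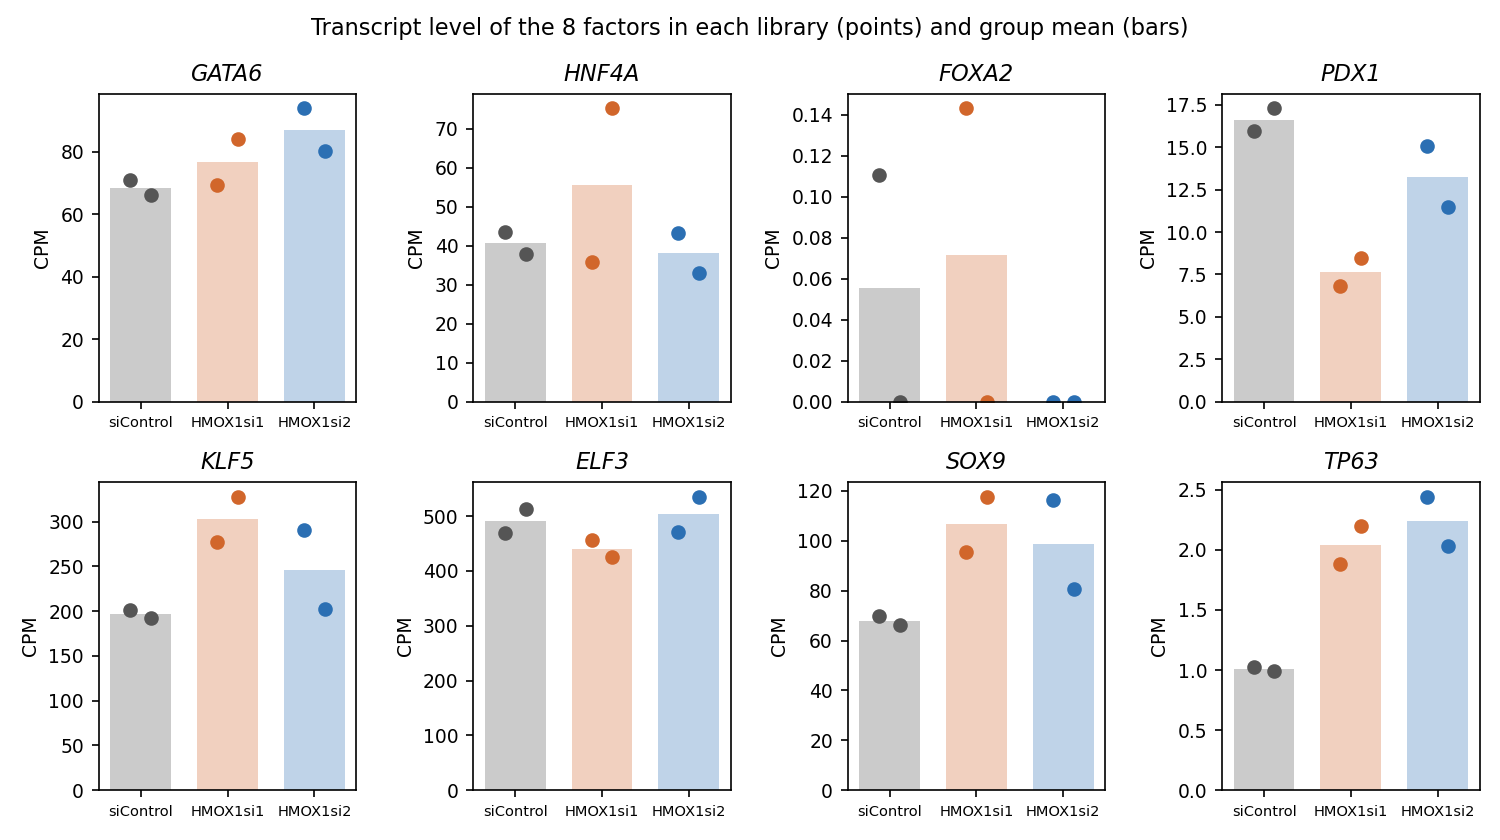
CPM of the 8 factors in each library (points) with the group mean (bars), each panel with its own linear axis from 0. TP63 lies above both controls in all 4 knockdown libraries, PDX1 lies below both, and the HMOX1si1 libraries of HNF4A lie far apart (35.9 and 75.3 CPM).

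GATA6, a zinc finger factor of endoderm and the main marker of the classical subtype (chromosome 18, 22169443 to 22202528, plus strand, GENCODE 29 on GRCh38), had 71.0 and 66.1 CPM in the siControl libraries, 69.4 and 84.0 with HMOX1si1, and 94.0 and 80.3 with HMOX1si2. Both HMOX1si2 libraries and 1 HMOX1si1 library were above both controls. Against siControl the log2 change came to 0.16 with HMOX1si1 (SE 0.13, edgeR adjusted p = 0.450) and 0.35 with HMOX1si2 (SE 0.13, edgeR adjusted p = 0.176), neither past the threshold of 0.05. The 95% intervals, not adjusted for the number of genes, ran from −0.17 to 0.49 and from 0.02 to 0.67. GATA6 shares 561 exonic bases with antisense genes that are not in the table, and whether counting used the strand is not given in the sources used here.

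HNF4A, a nuclear receptor of liver, gut and pancreas (chromosome 20, 44355700 to 44434596, plus strand), had 43.5 and 37.9 CPM in siControl, 35.9 and 75.3 with HMOX1si1, and 43.3 and 32.9 with HMOX1si2. HMOX1si1 replicate 2 was the highest of the 6 libraries and replicate 1 was under both controls. This gap of 2.09-fold between replicates was matched or exceeded by 3.54% of tested genes in that group. Against siControl the log2 change came to 0.45 with HMOX1si1 (SE 0.34, edgeR adjusted p = 0.404) and −0.09 with HMOX1si2 (SE 0.34, edgeR adjusted p = 0.885). Without HMOX1si1 replicate 2 the value for HMOX1si1 was −0.18, so that its sign rested on that library. The intervals, from −0.38 to 1.28 and from −0.92 to 0.73, were the widest of the 7 factors. Of the 2 starts printed above, the counts do not say which was used.

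FOXA2, a winged-helix factor that opens chromatin in endoderm (chromosome 20, 22581005 to 22585455, minus strand), had 4 and 0 counts in siControl, 6 and 0 with HMOX1si1, and 0 and 0 with HMOX1si2. These 10 counts in 2 of 6 libraries did not pass the filter on low counts, and no fold change is given. FOXA2 shares 70 exonic bases with AL121722.1, a protein-coding gene on the same strand that is in the table. A count of 0 allows up to 3 counts, which is 0.0663 to 0.0829 CPM in these libraries, counting error only. FOXA1, the closest relative of FOXA2, had group means of 12.2 CPM (SD 1.49, n = 2) in siControl, 16.3 (SD 2.03) with HMOX1si1 and 19.3 (SD 2.80) with HMOX1si2. The log2 fold changes of FOXA1 were 0.42 (edgeR adjusted p = 0.162) and 0.66 (edgeR adjusted p = 0.0812). FOXA1 shares exonic bases with TTC6, which is in the table.

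PDX1, the homeobox factor that specifies the pancreas (chromosome 13, 27920020 to 27926231, plus strand), had 15.9 and 17.3 CPM in siControl, 6.82 and 8.45 with HMOX1si1, and 15.1 and 11.5 with HMOX1si2. All 4 knockdown libraries were below both controls, the HMOX1si1 libraries by far the lowest. PDX1 fell with HMOX1si1, with a log2 fold change of −1.12 (SE 0.19, 95% interval −1.58 to −0.67, edgeR adjusted p = 0.0225), to 0.459 of the control level. With HMOX1si2 the log2 fold change was −0.33 (SE 0.18, −0.77 to 0.12, edgeR adjusted p = 0.306), and over both siRNAs it was −0.72 (SE 0.16, edgeR adjusted p = 0.0420). The direct difference, HMOX1si2 minus HMOX1si1, was 0.80 (SE 0.19, 0.34 to 1.25) with an edgeR adjusted p of 0.0769, so it did not pass the threshold, whereas DESeq2 gave an adjusted p of 0.00672. With HMOX1si1 the call ended without either siControl library (adjusted p 0.0764 without replicate 1 and 0.126 without replicate 2) or either HMOX1si1 library (0.0986 and 0.0827), while the log2 fold change stayed between −1.28 and −0.98. The summed level of the 11 epithelial markers was also lower with HMOX1si1 (9611 to 9958 CPM) than in siControl (13892 to 15619) or HMOX1si2 (13611 to 13746). The abundant keratins KRT8, KRT18 and KRT19 were the 3 of 11 markers called lower with HMOX1si1, against 5.01% of all tested genes. The other 8 were not called, and the median log2 fold change of the 11 was −0.12. The part of these markers in the PDX1 value was not tested.

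KLF5, a Krüppel-like factor of proliferating epithelia (chromosome 13, 73054976 to 73077542, plus strand), had 201 and 192 CPM in siControl, 278 and 328 with HMOX1si1, and 291 and 202 with HMOX1si2. All 4 knockdown libraries were above both controls, HMOX1si2 replicate 2 by a margin of about 1 CPM. Against siControl the log2 change came to 0.62 with HMOX1si1 (SE 0.19, edgeR adjusted p = 0.0848) and 0.33 with HMOX1si2 (SE 0.19, edgeR adjusted p = 0.309). The HMOX1si2 libraries differed from each other by 1.44-fold. With HMOX1si1 the 95% interval ran from 0.17 to 1.08. This KLF5 value was called in 4 of 15 alternatives, among them DESeq2 (adjusted p = 0.0176) and edgeR with only the compared groups in the fit (adjusted p = 0.0346). It was not called by limma-voom (adjusted p = 0.0833) or by edgeR with a replicate block (adjusted p = 0.130). With a library left out, the KLF5 log2 fold change ran from 0.50 to 0.73 with HMOX1si1 and from 0.04 to 0.56 with HMOX1si2.

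ELF3, an ETS factor of simple epithelia (chromosome 1, 202007945 to 202017188, plus strand), had 470 and 512 CPM in siControl, 457 and 425 with HMOX1si1, and 472 and 536 with HMOX1si2. The HMOX1si1 libraries were just under the controls and the HMOX1si2 libraries overlapped them. Against siControl the log2 change came to −0.16 with HMOX1si1 (SE 0.11, −0.42 to 0.11, edgeR adjusted p = 0.363) and 0.04 with HMOX1si2 (SE 0.11, −0.22 to 0.30, edgeR adjusted p = 0.858). These were the narrowest intervals of the 7 factors. ELF3 shares 1328 exonic bases with the antisense gene ELF3-AS1 and a sense intronic gene, neither of them in the table.

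SOX9, the high-mobility-group factor of duct and progenitor cells (chromosome 17, 72121020 to 72126420, plus strand), had 69.7 and 66.2 CPM in siControl, 95.4 and 118 with HMOX1si1, and 116 and 80.7 with HMOX1si2. All 4 knockdown libraries were above both controls. Against siControl the log2 change came to 0.65 with HMOX1si1 (SE 0.19, 0.18 to 1.12, edgeR adjusted p = 0.0856) and 0.54 with HMOX1si2 (SE 0.19, 0.06 to 1.01, edgeR adjusted p = 0.155), and neither passed the threshold. As for KLF5, the HMOX1si2 libraries were 1.44-fold apart. The HMOX1si1 value was called in 4 of 15 alternatives, among them DESeq2 (adjusted p = 0.0187) and edgeR with only the compared groups in the fit (adjusted p = 0.0381). It was not called by limma-voom (adjusted p = 0.0877) or by edgeR with a replicate block (adjusted p = 0.130). With a library left out, the SOX9 log2 fold change ran from 0.49 to 0.79 with HMOX1si1 and from 0.25 to 0.77 with HMOX1si2. The summed level of 14 duct markers was 5657 to 6187 CPM in siControl, 3852 to 4000 with HMOX1si1 and 5042 to 5207 with HMOX1si2, a sum made up mostly of KRT19, ANXA4, EPCAM and MUC1. Of 9 tested duct markers 3 were called lower with HMOX1si1 and 1 with HMOX1si2, against 5.01% and 2.67% of all tested genes. Their median log2 fold changes were −0.28 and −0.16, and their part in the SOX9 values was not tested.

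TP63 (chromosome 3, 189631416 to 189897279, plus strand) had 37 and 44 counts in siControl, 79 and 88 with HMOX1si1, and 106 and 92 with HMOX1si2, the fewest counts of the tested factors. In CPM these were 1.02 and 0.991, then 1.88 and 2.20, then 2.44 and 2.03. The 3 groups were each tight, and all 4 knockdown libraries were well above both controls. TP63 rose with HMOX1si1 by a log2 fold change of 1.02 (SE 0.22, 95% interval 0.47 to 1.57, edgeR adjusted p = 0.0435) and with HMOX1si2 by 1.15 (SE 0.22, 0.61 to 1.70, edgeR adjusted p = 0.0427), a 2.03-fold and a 2.22-fold rise. The siRNAs did not differ detectably from each other (0.13, SE 0.21, −0.39 to 0.65, edgeR adjusted p = 0.785). Both calls were close to the threshold: leaving out any 1 of the 6 libraries ended them, with edgeR adjusted p of 0.0535 to 0.208 for HMOX1si1 and 0.0709 to 0.186 for HMOX1si2, while the log2 fold change stayed between 0.90 and 1.27. They also ended with only the compared groups in the fit (edgeR adjusted p = 0.0563 and 0.0797). Even after the rise TP63 stood at only 0.274 and 0.300 CPM per kilobase, far under PDX1 at 3.05 and 5.31. Gene-level counts do not separate the long transcripts, whose start is printed above, from the short ΔN transcripts that squamous cells favour.

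**Figure D3:**
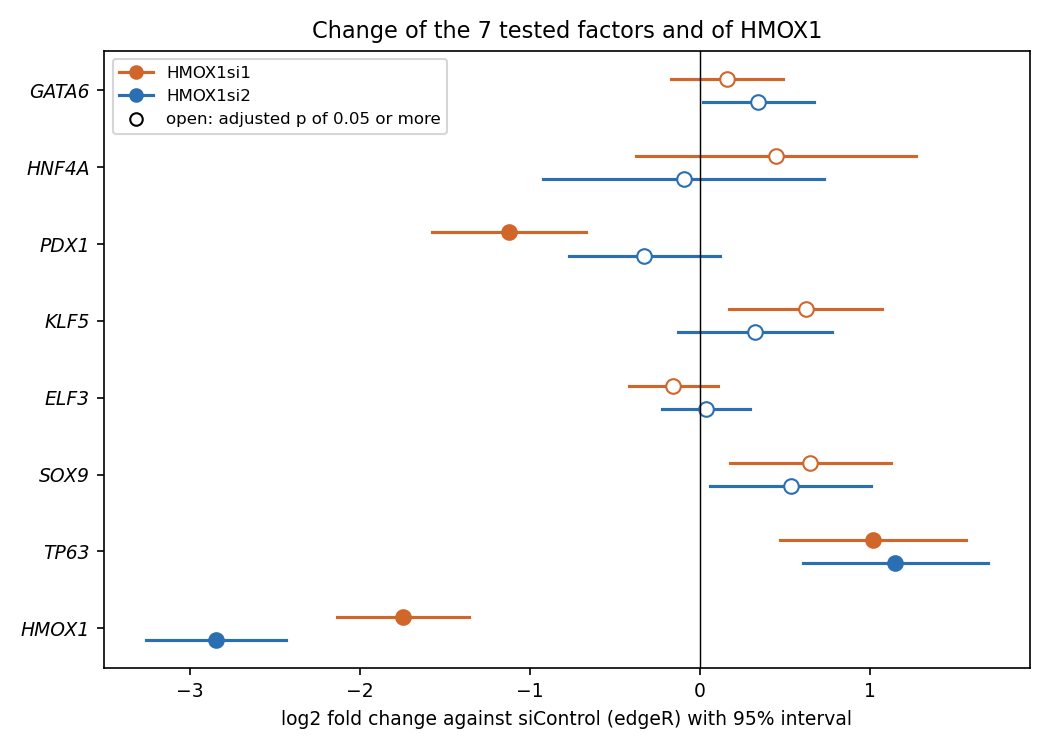
Log2 fold change against siControl of the 7 tested factors and HMOX1 with 95% intervals, for HMOX1si1 (orange) and HMOX1si2 (blue), filled where the edgeR adjusted p was under 0.05. TP63 is filled for both siRNAs (1.02 and 1.15), and PDX1 for HMOX1si1 (−1.12) but not for HMOX1si2 (−0.33).

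Directly compared, HMOX1si2 against HMOX1si1 gave 0 of 7 factors called by edgeR in either direction, against 2.14% of all tested genes higher and 1.49% lower. PDX1 was the 1 factor with an unadjusted p under 0.05, and DESeq2 called that 1 factor.

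Over the 6 libraries, the genes whose log2 CPM followed each factor most closely were taken from 1453 or 1454 genes with enough signal and span. For TP63 these were LRRC3 (Pearson r = 0.996), ZNF845 (0.996) and BCL7A (0.996), for PDX1 they were GSTM4 (0.995), COL6A1 (0.994) and SH3BP1 (0.994), and for SOX9 they were CNOT4 (0.987), CREBBP (0.984) and ZBTB7A (0.982). KLF5 was most like KIAA1217 (0.978), EGR1 (0.978) and RBM33 (0.972), GATA6 like ZNF160 (0.978), HIVEP3 (0.965) and FAM133B (0.957), ELF3 like TRAPPC6A (0.975), HLA-DPB1 (0.947) and TSPAN9 (0.927), and HNF4A like CALM3 (0.973), MBD5 (0.957) and a gene named only by its identifier. The points share libraries and groups, so with so many genes compared such values are a description.

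Of the 26 relatives of the factors, 20 were tested, and with each siRNA 2 were called higher and 1 lower (5.02% and 5.01% of all tested genes with HMOX1si1, 3.06% and 2.67% with HMOX1si2). KLF10 and SOX4 rose with both siRNAs, CDX2 fell with HMOX1si1 and ELF4 fell with HMOX1si2, and the other 16 were not called with either siRNA. KLF10, an early response gene of TGF-beta signalling, went from 50.3 CPM (SD 3.29, n = 2) to 130 (SD 16.2) and 94.2 (SD 17.2), with log2 fold changes of 1.37 (edgeR adjusted p = 0.0104) and 0.91 (edgeR adjusted p = 0.0368). SOX4, which acts in progenitor and mesenchymal states, went from 37.9 CPM to 53.0 and 63.2, with log2 fold changes of 0.48 (edgeR adjusted p = 0.0367) and 0.74 (edgeR adjusted p = 0.0229). CDX2 went from 79.4 CPM to 44.3 with HMOX1si1 (−0.84, edgeR adjusted p = 0.0209), and stood at 62.6 with HMOX1si2 (−0.34, edgeR adjusted p = 0.175). ELF4 went from 205 CPM to 133 with HMOX1si2 (−0.63, edgeR adjusted p = 0.0418).

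Other regulators of the same identities were counted from lists whose genes overlap in places. Of 13 tested factors of pancreas development, 2 rose with HMOX1si1, ISL1 (0.46) and BHLHA15 (0.71), and 0 fell (5.02% and 5.01% of all tested genes). With HMOX1si2 edgeR called 0 of the 13 (1 at an unadjusted p under 0.05, and 1 called by DESeq2). In siControl ISL1 and BHLHA15 stood at 26.0 and 11.0 CPM. They were not alone among the 25 factors listed, of which 13 had enough counts to be tested. NR5A2 stood at 66.2, MNX1 at 11.7 and PAX6 at 4.04 CPM, while some others, among them PTF1A, NKX6-1, NEUROG3 and NEUROD1, were at 0 counts in all libraries. Of 20 tested squamous and mesenchymal regulators, 6 rose and 2 fell with HMOX1si1 (5.02% and 5.01% of all tested genes). With HMOX1si2 edgeR called 1 of the 20 higher, a share near the 3.06% of all tested genes, and 0 lower (2.67%). Of the 20, 9 had an unadjusted p under 0.05 with HMOX1si2, and DESeq2 called 6 higher and 1 lower. Over all 13769 tested genes, 3560 had such a p, and DESeq2 called 1890. FOSL1, an AP-1 subunit of the squamous state, rose with both, from 68.8 CPM to 228 and 149 (log2 fold changes 1.73 and 1.11, edgeR adjusted p = 0.00618 and 0.0233). SNAI2, a repressor of epithelial genes, rose with HMOX1si1 (1.18), and so did RUNX3 (1.04) and the chromatin factor HMGA2 (0.63). SMARCD3, a subunit of a chromatin remodelling complex, fell with HMOX1si1 (−0.76). With HMOX1si2, SNAI2 (0.72), RUNX3 (0.73), HMGA2 (0.46) and SMARCD3 (−0.54) had the same directions but were not called. Their edgeR adjusted p were 0.0801, 0.0840, 0.0692 and 0.0928. None of these genes was called between the siRNAs, and all were called for the average of both siRNAs.

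Of 22 tested epithelial regulators, 1 rose, near the 5.02% of all tested genes, and 4 fell (5.01%) with HMOX1si1. Those that fell were OVOL1 (−1.43), CREB3L1 (−0.98), CDX2 (−0.84) and ESRP2 (−0.67), an epithelial splicing factor, and the gene that rose was NR3C1, the glucocorticoid receptor (0.76). With HMOX1si2 edgeR called 0 of the 22 (9 at an unadjusted p under 0.05, and 4 called by DESeq2). OVOL1, CREB3L1 and ESRP2 also differed between the siRNAs, being higher with HMOX1si2. SMARCD3 and ESRP2 overlap other genes of the table in an exon.

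**Figure D4:**
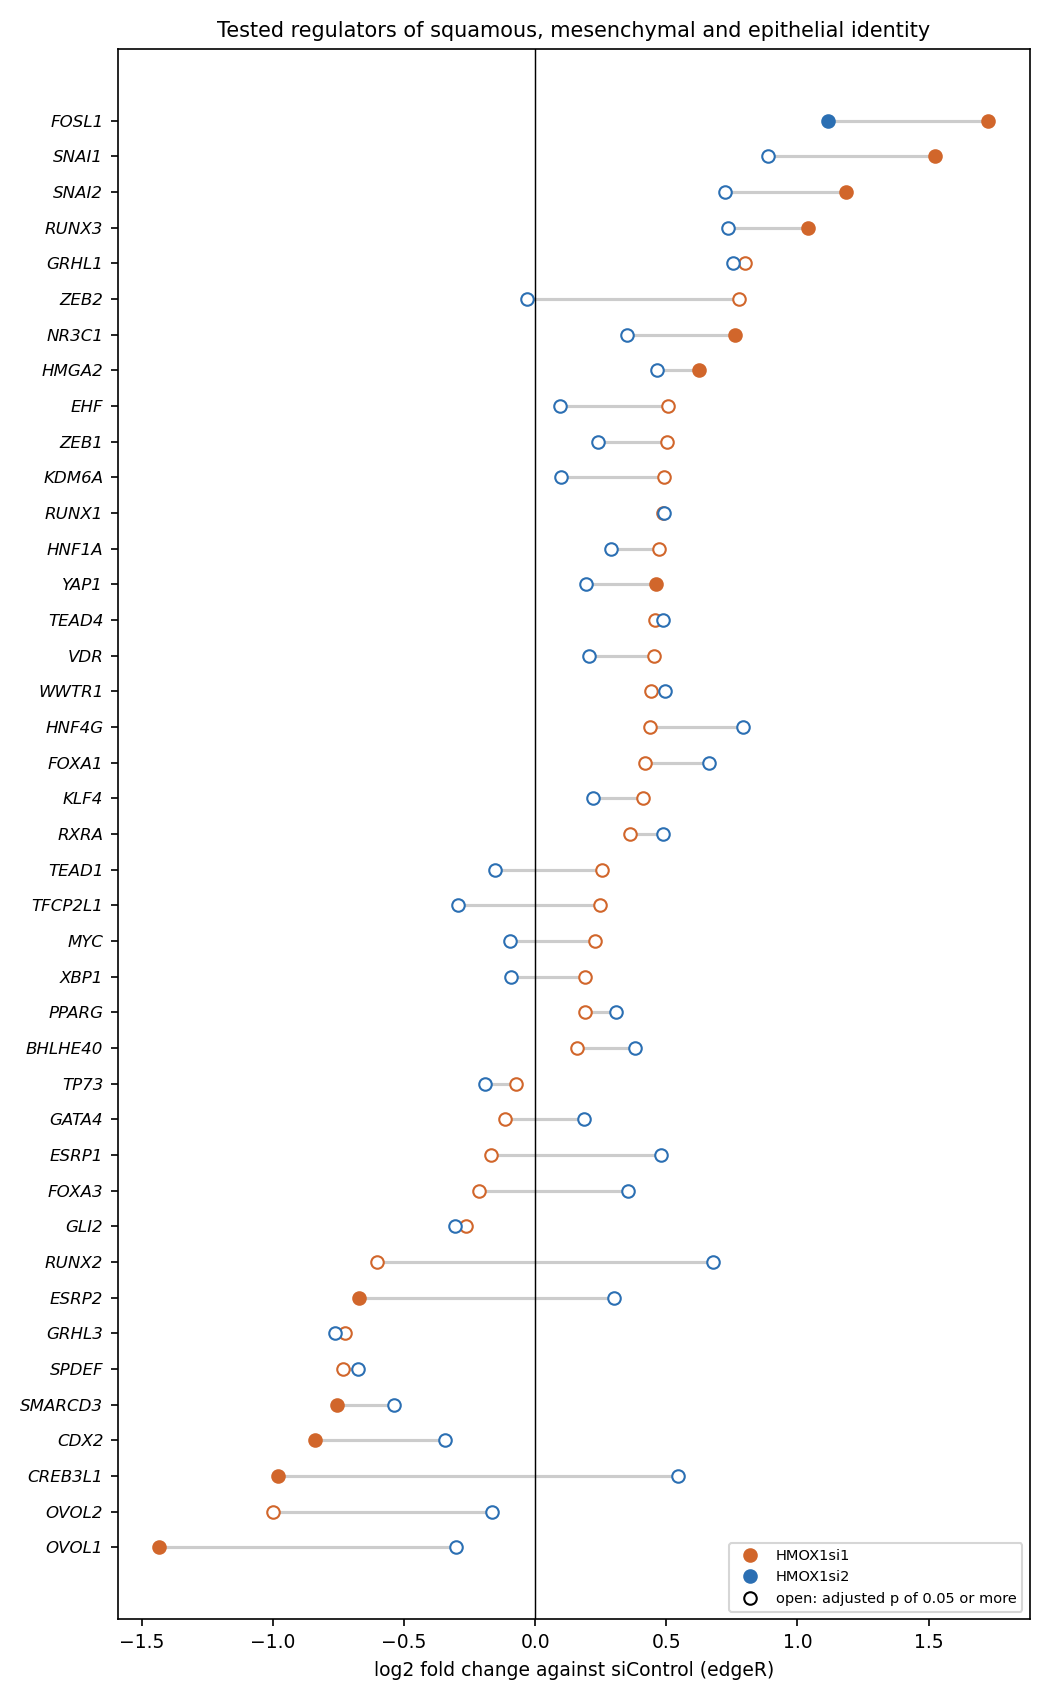
Log2 fold change against siControl of 41 tested squamous, mesenchymal and epithelial regulators (each gene shown once), for HMOX1si1 (orange) and HMOX1si2 (blue), filled where the edgeR adjusted p was under 0.05. FOSL1 at the top is filled for both siRNAs, and OVOL1 at the bottom is filled for HMOX1si1 (−1.43) and open for HMOX1si2 (−0.30).

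The genes that p63 is known to activate did not move as 1 group with TP63. With HMOX1si1 6 of 18 tested rose and 1 fell (median log2 fold change 0.28, with 5.02% and 5.01% of all tested genes called), whereas with HMOX1si2 2 rose and 3 fell (median −0.04, with 3.06% and 2.67%), while TP63 was called higher with both (1.02 and 1.15). LAMB3, a chain of laminin-332 in the basement membrane, rose with both, from 445 CPM (SD 4.46, n = 2) to 1362 (SD 0.0470) and 881 (SD 16.8), with log2 fold changes of 1.61 (edgeR adjusted p = 0.00453) and 0.99 (edgeR adjusted p = 0.0112). COL17A1, a hemidesmosome collagen, rose with HMOX1si1 (447 to 906 CPM, 1.02) and fell with HMOX1si2 (to 265 CPM, −0.75), and the difference between the siRNAs was −1.77 (edgeR adjusted p = 0.00581). DSC3, a desmosome cadherin (1.0), and ITGA6, an integrin of hemidesmosomes (0.93), rose with HMOX1si1. For the average of both siRNAs DSC3 was at 0.71 (edgeR adjusted p = 0.0265) and ITGA6 at 0.64 (edgeR adjusted p = 0.0415). With HMOX1si2, and between the siRNAs, edgeR called neither gene, whereas DESeq2 called both between the siRNAs. PERP rose (0.50) and JAG1 fell (−0.53) with HMOX1si2. Between the siRNAs, 2 of the 18 tested genes of this list were higher and 5 lower under HMOX1si2, against 2.14% and 1.49% of all tested genes. The squamous keratins KRT5, KRT14, KRT6A and KRT17 had at most 10 counts in any library and were not tested.

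**Figure D5:**
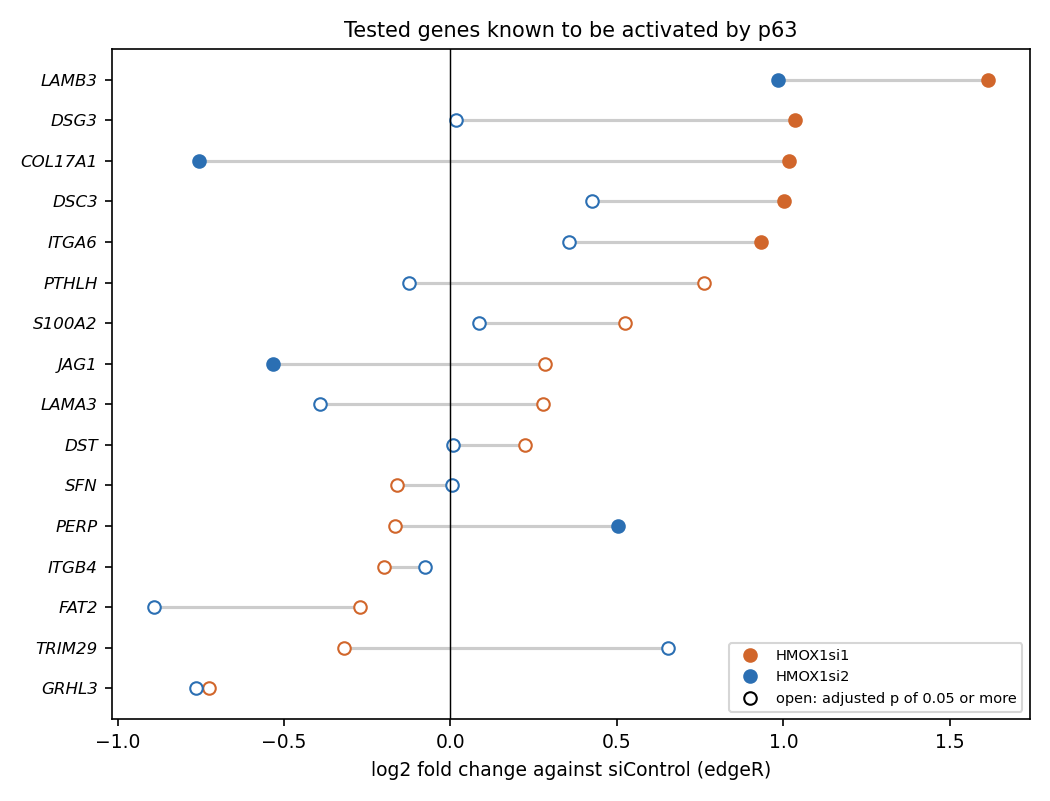
Log2 fold change against siControl of 16 tested genes known to be activated by p63, for HMOX1si1 (orange) and HMOX1si2 (blue), filled where the edgeR adjusted p was under 0.05. LAMB3 is filled above 0 for both siRNAs (1.61 and 0.99), and COL17A1 is filled on opposite sides of 0 (1.02 and −0.75).

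Genes known as HNF4A targets were mostly untested at these levels, with 9 of 25 tested. With HMOX1si1 3 fell and 0 rose (5.01% and 5.02% of all tested genes), and with HMOX1si2 1 rose and 1 fell (3.06% and 2.67%), while HNF4A itself was not called with either. VIL1, the brush border protein villin, fell with both, from 450 CPM to 142 and 279 (−1.66 and −0.69, edgeR adjusted p = 0.00453 and 0.0196). TMPRSS2, a membrane serine protease, fell with HMOX1si1 (54.8 to 25.2 CPM, −1.12) and rose with HMOX1si2 (to 89.9 CPM, 0.71), and the siRNAs differed by 1.83 (edgeR adjusted p = 0.00581). F10, coagulation factor X, fell with HMOX1si1 (−1.53). VIL1 shares exonic bases with USP37, which is in the table.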

How the data were processed

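Per the labels, 6 messenger RNA libraries were made from AsPC-1, 2 per group. The deposited table was read as holding expected counts, that is, estimated reads of a gene in a library. No label states this unit, and it was judged by the values. All values are whole, so rounding changed nothing, but even numbers make up 71.9% of those between 1 and 10, and 49.9% above 100. Aligner and counting tool were not given in the sources used here. GRCm38 and mm10, both mouse builds, are listed in the submitters' processing notes, yet every identifier is human, and the counting build is therefore unknown. Of 20263 identifiers, 20148 had a symbol and 20224 were in GENCODE 29 (GRCh38), the source of positions and lengths.

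Genes were kept by filterByExpr, scaled by TMM and entered, all 6 libraries together with a mean for each group, in edgeR 4.0.16 in R 4.3.3 (quasi-likelihood test, Benjamini-Hochberg adjustment over all 13769 tested genes, threshold 0.05). The script was tested on simulated data. Standard errors were taken as the log2 change over the root of F, and a prior count of 2 entered log2 CPM. DESeq2 1.42.0, limma 3.58.1 (voom), other scalings, filters and designs, and leaving out each library were alternatives. The common biological coefficient of variation was 0.165.

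The members and the 16 gene lists were chosen with earlier results of these data known. All 8 factors are named, and from each other list up to 6 called genes per comparison by smallest p, besides relatives of the factors and defining markers. Likeness took the 3 genes of highest Pearson r among tested genes whose log2 CPM averaged 2 or more and spanned 1 or more. The figures show further genes of the lists, and some genes of the lists are counted but not reported here. Deviations from the group mean of same-numbered libraries correlated at 0.00791, 0.0272 and −0.153 between the groups. The labels do not say whether replicate numbers pair the libraries, and the main fit used no pairing.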

Additional observations from a re-analysis of the deposited data

Results flagged for a closer look

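The difference between the siRNAs itself passed the edgeR quasi-likelihood test (p adjusted by Benjamini-Hochberg) for none of the 7 tested factors (1 at an unadjusted p under 0.05, and 1 called by DESeq2), but it did for HMOX1 and 15 genes of the lists reported here. These 15 were named by smallest p, at most 6 per list and comparison. Of all tested genes, 2.14% were called higher and 1.49% lower with HMOX1si2 than with HMOX1si1. HMOX1 was lower with HMOX1si2 than with HMOX1si1 by a log2 difference of −1.10. Among regulators, ISL1 was lower (−0.56), and OVOL1 (1.13), ESRP2 (0.97) and CREB3L1 (1.53) were higher with HMOX1si2. The classical genes AGR2 (1.46) and MUC13 (1.05) and the basal gene FGFBP1 (0.81) were higher with HMOX1si2 than with HMOX1si1, and the basal gene AREG (−1.07) was lower. Of 24 tested classical genes 2 were called higher and 0 lower, and of 12 tested basal genes 1 was called higher and 1 lower. With HMOX1si1 against siControl, 1 of these classical genes was called higher and 5 lower, and 0 basal genes higher and 2 lower. With HMOX1si2 these were 0 and 3, then 0 and 2. Of all tested genes, 5.02% and 5.01% were called with HMOX1si1, and 3.06% and 2.67% with HMOX1si2. Median log2 fold changes were −0.52 and −0.28 for the classical genes and −0.35 and −0.40 for the basal genes. Against siControl, AGR2 (−1.67) and MUC13 (−1.43) fell with HMOX1si1 and were at −0.21 and −0.38 with HMOX1si2, FGFBP1 fell with both (−2.14 and −1.33), and AREG was at 0.42 with HMOX1si1 and fell with HMOX1si2 (−0.64). Among genes activated by p63, COL17A1 (−1.77), LAMB3 (−0.63) and JAG1 (−0.82) were lower and PERP (0.67) was higher with HMOX1si2. Among HNF4A targets, F10 (1.16), VIL1 (0.97) and TMPRSS2 (1.83) were higher with HMOX1si2. When each of the 6 libraries was left out in turn, COL17A1 and TMPRSS2 were called in all 6 fits, HMOX1, ISL1, ESRP2, FGFBP1, LAMB3, PERP and F10 in 0 of 6, and the other 7 genes in 1 to 4.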

How the results depend on the processing

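The number of factors called depended on the test and on single libraries. With HMOX1si1 it was 2, and it was 4 with DESeq2, 3 with only the groups compared in the fit (PDX1, KLF5 and SOX9), 1 with limma-voom, 0 with a replicate block, and 0 to 3 when a library was left out. With HMOX1si2 it was 1, and it was 0 with limma-voom, with a replicate block, with only the groups compared in the fit, and whichever library was left out. On average over the siRNAs it was 2, and it was 4 with DESeq2, 0 with a replicate block and 0 to 4 when a library was left out. Between the siRNAs it was 0, and 1 with DESeq2. Over all tested genes, 1381 were called with HMOX1si1 (2639 with DESeq2, 481 with a replicate block, 0 to 1492 with a library left out, and 1529 with only the groups compared), 789 with HMOX1si2 (1890, 45 and 0 to 362, and 179 with only the groups compared), 1389 on average (2674, 255 and 0 to 1594) and 499 between the siRNAs (1411, 87 and 19 to 204, and 156 with only the groups compared). A replicate block with crossed numbers in the siRNA groups, added after seeing the data, called 1170 genes and 1 factor between the siRNAs. A fit without a library has fewer samples, and the causes of these changes were not tested.

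Signs of small values turned when a library was left out. HNF4A ranged from −0.18 to 0.88 with HMOX1si1, −0.31 to 0.09 with HMOX1si2 (0.00 without siControl replicate 1), −0.14 to 0.39 on average and −0.98 to 0.08 between the siRNAs. ELF3 ranged from −0.06 to 0.13 with HMOX1si2 (−0.03 without siControl replicate 1) and −0.13 to 0.01 on average. Between the siRNAs SOX9 ranged from −0.40 to 0.12 (0.05 without HMOX1si1 replicate 2) and TP63 from −0.01 to 0.26. TP63 and PDX1 kept their signs against siControl in all alternatives run. With a replicate block the adjusted p was 0.0909 (HMOX1si1) and 0.1000 (HMOX1si2) for TP63 and 0.0537 for PDX1 with HMOX1si1.

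Each group has 2 libraries, which limits precision, and TP63, at 37 to 106 counts, carries the most counting error of the tested factors.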
